A study of Rattus norvegicus with 16 samples.

Results

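Glycolysis and lactate production were followed through 36 genes for glucose uptake, the glycolytic enzymes, their regulators and the fate of pyruvate. The genes were listed by symbol for these roles. Of the 36 genes, 35 had a row in the table of 32623 rat genes, and Gapdh was not analysed here.

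Glycolysis turns glucose into pyruvate in the cytosol, with yields of ATP and NADH, and lactate dehydrogenase turns pyruvate into lactate while it restores NAD. The flow is set mainly where glucose enters the cell, at hexokinase, at phosphofructokinase and at pyruvate kinase, and pyruvate dehydrogenase kinases keep pyruvate out of the mitochondrial citrate cycle. Phosphofructokinase is sensitive to low pH in many cells, and in the kidney the proximal tubule is known for making glucose and burning lactate and fatty acids, while distal segments depend more on glycolysis.

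The study asked how an acidic medium changes gene expression in renal epithelial cells and fibroblasts that share a medium. NRK-52E is an epithelial line and NRK-49F a fibroblast line, both from normal rat kidney. NRK-52E cells on permeable filter inserts stood in wells with NRK-49F cells on the plastic below, so that cell line and growth surface cannot be told apart. After 24 h without serum the co-cultures were kept for 48 h at pH 7.4 or at pH 6.0, and the cell lines were then processed apart. This gave 4 groups of 4 libraries, control (pH 7.4) and acidic (pH 6.0) for each cell line, all from co-culture. The study's methods do not say whether serum was present during the 48 h. The labels give no separate cultures for the 4 libraries of a group, so p-values measure the spread between these libraries, which may be technical.

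Between 16201084 and 34784862 fragments were counted on genes in a library. For NRK-52E the totals were 17760185 to 20612657 in the controls and 16844811 to 23856187 in the acidic group, and for NRK-49F they were 17518187 to 27607214 and 16201084 to 34784862. Levels are given in FPM, a gene's fragments over the total of its library on the usual CPM scale of edgeR, with TMM scaling over the 16 libraries. They are not divided by gene length, so levels of different genes are not compared as amounts of RNA, and where a sum is called mostly 1 gene this refers to fragments. A gene was called when its false discovery rate (FDR) was below 0.01 in both edgeR and DESeq2. Log2 fold changes are edgeR's for pH 6.0 against pH 7.4, printed with their standard error (SE). FPM means are given with the SD over 4 libraries.

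The markers of the labelled cell types were read first, and those named here were picked from fixed lists after their values were seen. In NRK-52E cells the junction genes Ocln and Cgn had 41.2 ± 2.04 and 74.5 ± 2.03 FPM at pH 7.4, while Cdh1 had 1.33 to 1.87 FPM, Epcam and Cldn3 had at most 0.0469 and 0.0829 FPM in a library and Esrp1 was at 0. Of the proximal tubule genes, Slc34a1 and Hnf4a were at 0 in the 8 NRK-52E libraries, and Lrp2 had 0.381 to 0.995 FPM at pH 7.4. Only part of the epithelial list and little of the proximal tubule list was thus seen in these cells. NRK-49F cells had 6205 ± 410 FPM of Col1a1 and 392 ± 54.7 FPM of Pdgfra at pH 7.4, against 23.6 ± 3.84 and 0.286 ± 0.11 FPM in NRK-52E cells, and Thy1 was at 0 in the 16 libraries. Col3a1, a fibrillar collagen, went against the labels with 6221 ± 95 FPM in NRK-52E cells and 458 ± 103 FPM in NRK-49F cells, as did the keratin gene Krt8 with 430 ± 32 and 848 ± 70.4 FPM.

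The marker lists also moved with pH. In NRK-52E cells 5 of 7 tested epithelial markers were called lower at pH 6.0, against 28.5% of all genes, and 1 higher, against 28.2%, and the summed level of the list, mostly Krt8, was 562 to 634 FPM in the controls and 434 to 532 FPM in the acidic libraries. The fibroblast list in these cells, mostly Col3a1, had 7 of 9 tested genes lower, with sums of 6211 to 6454 and 1850 to 3217 FPM. In NRK-49F cells 5 of 11 tested fibroblast markers were lower, against 19.4% of all genes, while the sum, mostly Col1a1, was 7016 to 8059 FPM at pH 7.4 and 8048 to 9697 at pH 6.0. The epithelial sum in NRK-49F cells, nearly all Krt8, was 790 to 955 FPM at pH 7.4 and 203 to 223 at pH 6.0. The proximal tubule sum, mostly Aqp1, was 30.4 to 45.5 and 26.1 to 34.8 FPM in NRK-52E cells, and 21.2 to 34.9 and 33 to 79 FPM in NRK-49F cells. Slc5a2 was called lower in both lines and Slc4a4 higher in NRK-49F cells, there in 4 of the 8 fits that left out 1 library. Slc22a6, a transporter gene too low for a test, was at 0 in NRK-52E controls and 0.423 to 2.26 FPM in acidic libraries. Slc22a8 and Slc13a3, also untested, were likewise higher there without overlap, below 1 FPM. Lrp2, untested too, fell in these cells without overlap, with at most 0.047 FPM in an acidic library and at least 0.381 in a control. The leukocyte gene Ptprc and the endothelial genes Kdr and Emcn were at 0 in the 16 libraries, although Cd68 was called higher in NRK-49F cells (1.56 ± 0.14) and Tek lower in NRK-52E cells (-2.57 ± 0.14, log2 fold change ± SE). The part of these changes in the results on glycolysis was not tested.

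At pH 6.0 the called glycolysis genes lay in both directions in NRK-52E cells and mainly upward in NRK-49F cells, where 16 of 29 tested genes were not called. In NRK-52E cells 8 of 31 tested genes were called higher, against 28.2% of all 13735 genes tested, and 8 were called lower, against 28.5%. The 16 genes called in either direction compare with 56.7% of all genes. In NRK-49F cells 10 of 29 tested genes were called higher, against 18.4% of all 13339 genes tested, and 3 lower, against 19.4%, while 37.8% of all genes were called in either direction. The median log2 fold change of the tested glycolysis genes was -0.27 in NRK-52E cells and 0.22 in NRK-49F cells, beside 0.00 over all genes in each line. The median in NRK-49F cells was 0.09 without replicate 16 of the acidic group and 0.11 with all 16 libraries in 1 fit. Scaling by library totals moved the median of all genes in NRK-52E cells to -0.21 and that of the glycolysis genes to -0.48, and 6 of them were then higher and 11 lower. Under that scaling 37.6% of all called genes in NRK-52E cells were higher, beside 49.7% with TMM, so directions in these cells are relative to the other genes. The 16 called genes in NRK-52E cells and the 13 in NRK-49F cells kept their sign with library totals. For each of them the 4 libraries at pH 6.0 lay apart from the 4 at pH 7.4. The calls rest on the same libraries, so this separation adds no support. Its share over all genes is not given here. Without replicate 8 of the acidic NRK-52E group, 13 genes were called lower in place of 8, with Slc2a4 (-1.66), Tigar (-0.60), Eno1 (-0.41), Eno2 (-0.66) and Eno3 (-0.46) added, and Pgam2 was called higher (0.79). The shares of all genes called in that fit are not given here, so the changed counts are not a result about glycolysis genes. In bulk RNA, fewer cells and less RNA per cell cannot be told apart.

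**Figure D1:**
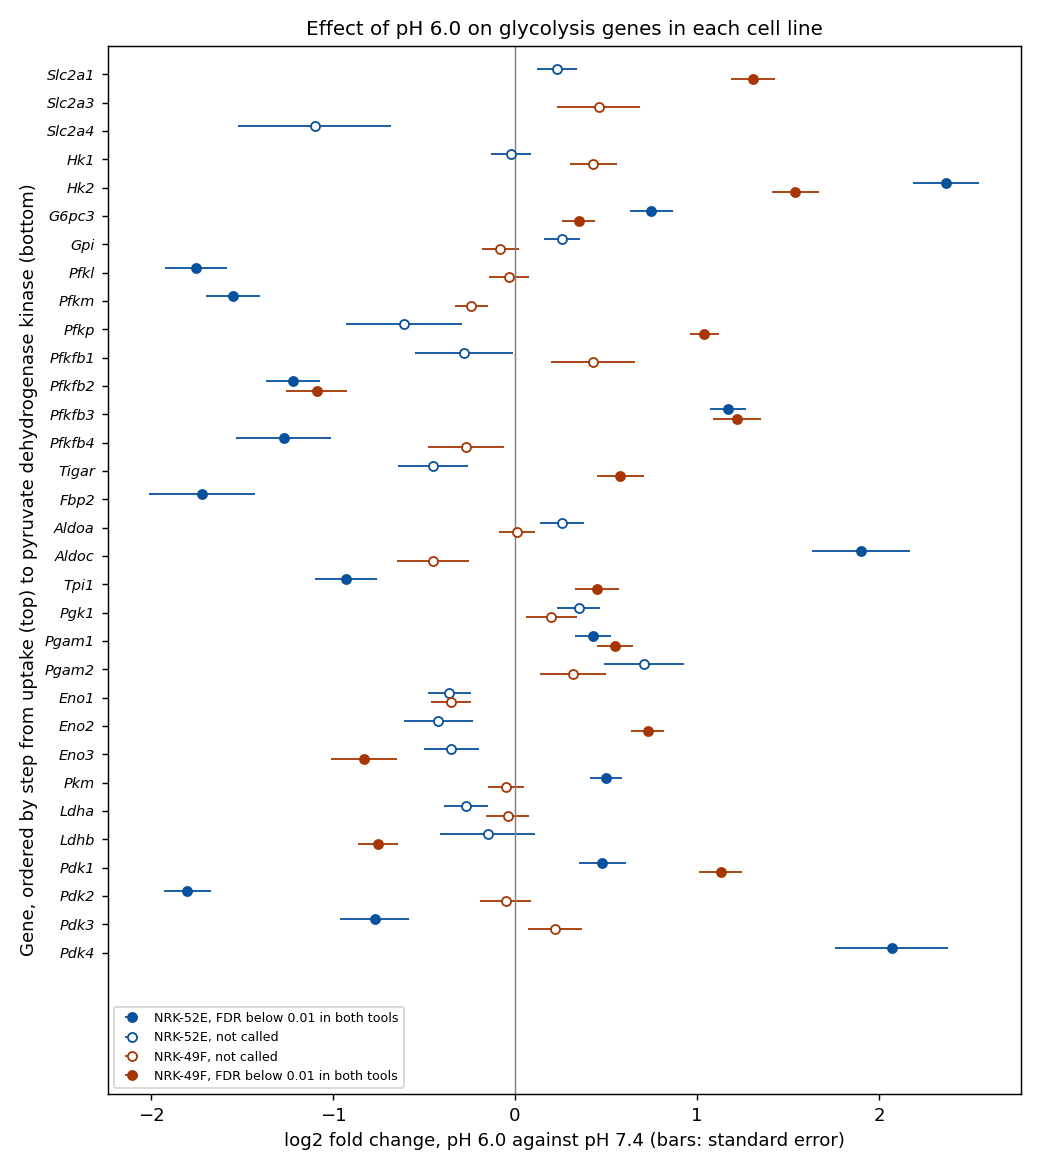
Log2 fold change at pH 6.0 against pH 7.4 (x axis) for each glycolysis gene that passed the filter on low counts (y axis, by step), with standard errors as bars. Blue is NRK-52E and brown is NRK-49F, and filled points had an FDR below 0.01 in both tools. Hk2 lies highest in both lines (2.37 and 1.54), and Pdk2 lies lowest in NRK-52E cells (-1.80).

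The column names of the count table carry a further number of unstated meaning. For NRK-52E it is 21 or 22, for NRK-49F 20 or 21, and each value covers 2 libraries per pH. All 16 and all 13 called genes had the same sign within each number. Since the pH groups lay apart for each of these genes, that sign was nearly fixed in advance and adds no support. The log2 fold changes within the numbers are given below for the key genes.

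Glucose enters these cells through facilitative transporters, and Slc2a1 (ENSRNOG00000007284, chromosome 5) encodes GLUT1, the carrier of most cultured cells. It had 61.8, 50.4, 54.2 and 62.3 FPM in the NRK-49F libraries at pH 7.4 and 121, 125, 173 and 153 FPM at pH 6.0. All 4 acidic libraries were above the 4 controls, by 2.5-fold on average (log2 fold change 1.31, SE 0.12, edgeR FDR = 3.52e-06, 1.14 and 1.46 within the numbers 20 and 21). In NRK-52E cells Slc2a1 had 73.1, 69.7, 64.5 and 67.6 FPM at pH 7.4 and 99.2, 80.4, 75.6 and 70.5 FPM at pH 6.0. These groups overlapped and the gene was not called (log2 fold change 0.23, SE 0.11, edgeR FDR = 0.0949), and the pH effect in NRK-52E minus that in NRK-49F passed its own test (log2 difference -1.09 ± 0.18, edgeR FDR = 5.59e-05). Slc2a3, the carrier GLUT3, was read in NRK-49F cells at 5.73 to 17.3 FPM without a call (0.46 ± 0.23, log2 fold change ± SE) and at no more than 0.19 FPM in NRK-52E cells. The insulin-dependent carrier gene Slc2a4 stayed below 3 FPM in the 16 libraries and was not called in NRK-52E cells, where its log2 fold change was -1.10 ± 0.42.

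Hexokinase traps glucose as glucose 6-phosphate, and Hk2 (ENSRNOG00000006116, chromosome 4), the isoform that is induced in many stressed and growing cells, showed the largest rise among the tested glycolysis genes in both lines. NRK-52E libraries had 23.9, 23.1, 26.3 and 22.7 FPM at pH 7.4 and 143, 151, 131 and 78.3 FPM at pH 6.0. The acidic libraries were all above the controls, with replicate 8 the lowest of them, and the mean was 5.24-fold higher (log2 fold change 2.37, SE 0.18, edgeR FDR = 1.18e-06, 2.60 and 2.07 within the numbers 21 and 22). NRK-49F libraries had 37.3, 39.1, 29.1 and 37.3 FPM at pH 7.4 and 105, 92.5, 129 and 94.4 FPM at pH 6.0. Again no acidic library overlapped the controls (log2 fold change 1.54, SE 0.13, edgeR FDR = 1.57e-06, 1.37 and 1.73 within the numbers), and the rise in NRK-52E cells was larger by 0.81 ± 0.23, edgeR FDR = 0.00708. That difference was called in only 4 of the 16 fits that left out 1 library, with values from 0.63 to 0.98. Hk1, the housekeeping isoform, had 75.3 ± 3.57 and 75.3 ± 12.6 FPM in NRK-52E cells and 126 ± 17.8 and 172 ± 27.8 FPM in NRK-49F cells, without a call in either line, but it was called higher in NRK-49F cells without replicate 12 of the acidic group (0.51). G6pc3, a widely expressed phosphatase that releases glucose from glucose 6-phosphate, was called higher in both lines (0.75 ± 0.12 and 0.35 ± 0.09), in NRK-49F cells in 3 of the 8 fits that left out 1 library, and Hk3 stayed at or below 0.313 FPM. Gpi, which makes fructose 6-phosphate, was not called in either line (0.26 ± 0.10 and -0.08 ± 0.10).

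Phosphofructokinase commits the sugar to glycolysis, and its genes parted the cell lines. In NRK-52E cells Pfkl (ENSRNOG00000001214, chromosome 20), the liver-type subunit, had 115, 104, 105 and 105 FPM at pH 7.4 and 33.9, 26.3, 25.2 and 43.4 FPM at pH 6.0. The muscle-type subunit Pfkm (ENSRNOG00000057988, chromosome 7) had 131, 131, 126 and 131 FPM at pH 7.4 and 39.9, 40.3, 38.7 and 59.9 FPM at pH 6.0. Both fell in every acidic library to under 60 FPM, with replicate 8 the highest of the acidic libraries for each (log2 fold change -1.75, SE 0.17, edgeR FDR = 6.31e-06 for Pfkl, and log2 fold change -1.55, SE 0.15, edgeR FDR = 5.01e-06 for Pfkm). Within the numbers 21 and 22 the log2 fold changes were -1.90 and -1.63 for Pfkl and -1.75 and -1.40 for Pfkm. In NRK-49F cells Pfkl had 118, 115, 127 and 143 FPM at pH 7.4 and 118, 123, 151 and 107 FPM at pH 6.0, and Pfkm had 207, 199, 190 and 216 and 166, 152, 187 and 189 FPM. The pH groups overlapped for Pfkl and narrowly parted for Pfkm, neither was called there (-0.03 ± 0.11 and -0.24 ± 0.09), and the pH effects differed between the lines for Pfkl (-1.74 ± 0.21, edgeR FDR = 2.24e-06) and Pfkm (-1.33 ± 0.17, edgeR FDR = 5.06e-06). The platelet-type subunit Pfkp (ENSRNOG00000017163, chromosome 17) had 175, 167, 161 and 166 FPM in NRK-49F cells at pH 7.4 and 324, 334, 366 and 366 FPM at pH 6.0. It rose in all 4 acidic libraries (log2 fold change 1.04, SE 0.08, edgeR FDR = 1.31e-06, 0.95 and 1.14 within the numbers), while in NRK-52E cells it was read at 0.656 to 2.48 FPM and was not called. The summed FPM of the 3 subunit genes went from 239 to 78.1 in NRK-52E cells and from 496 to 646 in NRK-49F cells, as means over 4 libraries.

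Fructose 2,6-bisphosphate, the strongest activator of phosphofructokinase, is made and removed by the Pfkfb enzymes. Pfkfb3 (ENSRNOG00000018911, chromosome 17), whose product mainly makes it, had 55.7, 55.6, 55.7 and 59.8 FPM in NRK-52E cells at pH 7.4 and 130, 146, 136 and 107 FPM at pH 6.0. The NRK-49F libraries had 13, 12, 12 and 14 FPM at pH 7.4 and 36, 30, 28 and 26 FPM at pH 6.0. The groups lay apart in each line, and the rises were 1.17 ± 0.10 and 1.22 ± 0.13 on the log2 scale (edgeR FDR = 2.23e-06 and 1.48e-05), with a difference between the lines that did not pass the test (-0.06 ± 0.16, edgeR FDR = 0.804). Within the numbers Pfkfb3 gave 1.27 and 1.05 in NRK-52E and 1.42 and 1.02 in NRK-49F cells. Pfkfb2 (ENSRNOG00000004162, chromosome 13) went the other way, from 14.4, 16.7, 17.9 and 16.9 FPM to 6.42, 8, 8.32 and 5.88 FPM in NRK-52E cells. In NRK-49F cells Pfkfb2 went from 10.9, 9.55, 8.82 and 8.82 FPM to 4.83, 3.58, 4.22 and 5.29 FPM. It was lower in all acidic libraries of both lines (-1.22 ± 0.15 and -1.09 ± 0.17, edgeR FDR = 4.36e-05 and 0.000217). Within the numbers Pfkfb2 gave -1.15 and -1.31 in NRK-52E and -1.26 and -0.91 in NRK-49F cells. Pfkfb4 (ENSRNOG00000020656, chromosome 8) was low throughout, with 2.86, 4.59, 3.73 and 2.9 FPM in NRK-52E cells at pH 7.4 and 1.65, 1.26, 1.15 and 1.88 FPM at pH 6.0. The fall passed the test (log2 fold change -1.27, SE 0.26, edgeR FDR = 0.00133, -1.41 and -1.15 within the numbers), while in NRK-49F cells Pfkfb4 was not called (-0.27 ± 0.21), and the difference between the lines did not pass the test (-1.01 ± 0.33, edgeR FDR = 0.0152). Tigar, a phosphatase that lowers fructose 2,6-bisphosphate, was called higher in NRK-49F cells (0.58 ± 0.13) and not called in NRK-52E cells (-0.45 ± 0.19), and the difference between the lines passed the test (-1.04 ± 0.23, edgeR FDR = 0.00101). Pfkfb1 stayed below 7 FPM without a call.

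Fructose 1,6-bisphosphatase runs the same step backward on the way to glucose. Fbp2 (ENSRNOG00000017637, chromosome 17), the muscle-type enzyme, had 2.16, 2.58, 1.66 and 1.81 FPM in NRK-52E cells at pH 7.4 and 0.428, 0.674, 0.861 and 0.517 FPM at pH 6.0. These low levels fell in every acidic library (log2 fold change -1.72, SE 0.29, edgeR FDR = 0.00032, -2.11 and -1.34 within the numbers). Fbp1, the liver and kidney enzyme, did not exceed 0.0899 FPM in NRK-52E cells and was at 0 in NRK-49F cells, and Fbp2 was too low for a test in NRK-49F cells.

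**Figure D2:**
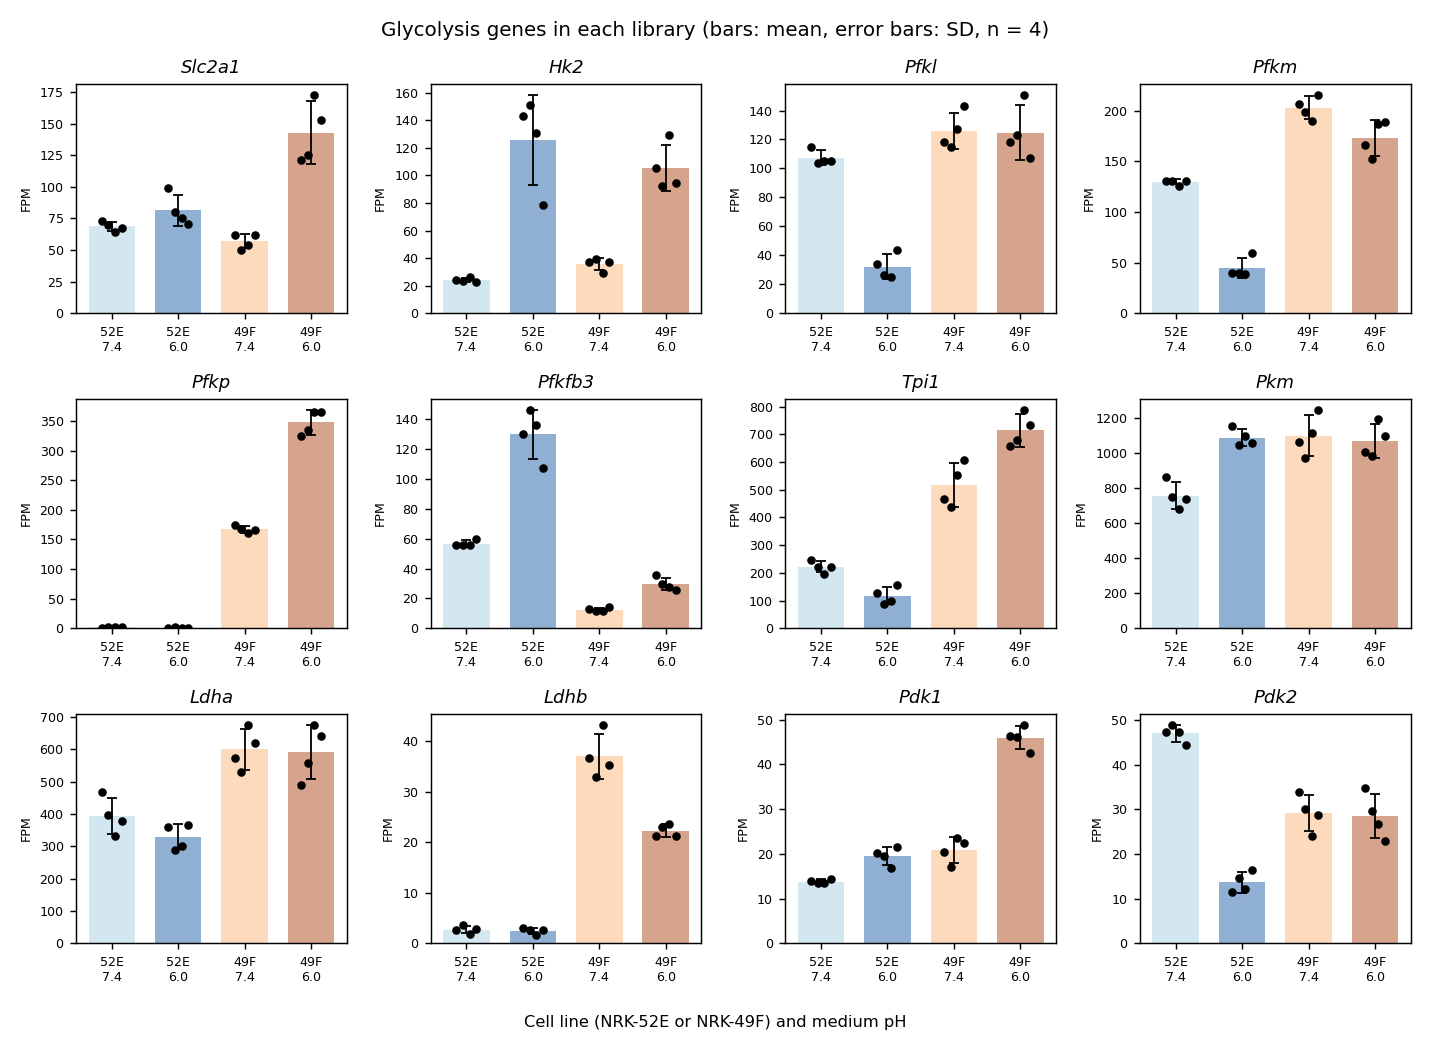
FPM of 12 glycolysis genes (y axes, linear, from 0) in each of the 16 libraries (points) by cell line and medium pH (x axes), with bars for the mean and error bars for the SD of 4 libraries. Pfkl, Pfkm and Pdk2 are lower at pH 6.0 in NRK-52E cells and overlap between the pH values in NRK-49F cells for Pfkl and Pdk2, while Slc2a1 and Pfkp are higher at pH 6.0 in NRK-49F cells.

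Of the 9 genes of lower glycolysis, from aldolase to enolase, 3 were called in NRK-52E cells, against 56.7% of all genes, and 4 in NRK-49F cells, against 37.8%. The count of 3 depends on replicate 8 of the acidic NRK-52E group. When that library was left out, Pgam2 (0.79), Eno1 (-0.41), Eno2 (-0.66) and Eno3 (-0.46) were called in NRK-52E cells too. The 56.7% of all genes belongs to the fit with all libraries. Aldoa (ENSRNOG00000052802, chromosome 1), which splits fructose 1,6-bisphosphate, had 1015, 837, 758 and 806 FPM in NRK-52E cells at pH 7.4 and 1123, 954, 937 and 1119 FPM at pH 6.0. The NRK-49F libraries had 1437, 1365, 1563 and 1559 FPM at pH 7.4 and 1465, 1519, 1650 and 1401 FPM at pH 6.0. The pH groups overlapped in both lines and the gene was not called (0.26 ± 0.12 and 0.01 ± 0.10). Aldoc (ENSRNOG00000011452, chromosome 10), the brain-type aldolase, rose from 2.9, 1.68, 2.53 and 3 FPM to 8.75, 7.28, 8.16 and 13.9 FPM in NRK-52E cells. All acidic libraries were above the controls (log2 fold change 1.90, SE 0.27, edgeR FDR = 9.72e-05, 1.77 and 1.98 within the numbers), and the effect differed from that in NRK-49F cells (2.33 ± 0.33, edgeR FDR = 1.59e-05), where Aldoc had 4.3, 4.4, 6.5 and 4.5 FPM at pH 7.4 and 3.7, 4.0, 3.3 and 3.6 FPM at pH 6.0 and was not called (-0.45 ± 0.20).

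Triosephosphate isomerase, which turns the products of aldolase into each other, was called in opposite directions in the lines with all libraries. Without replicate 8 of the acidic NRK-52E group Eno2 and Tigar were so too. Tpi1 (ENSRNOG00000015290, chromosome 4) had 246, 220, 197 and 223 FPM in NRK-52E cells at pH 7.4 and 127, 87.2, 99.6 and 155 FPM at pH 6.0. In NRK-49F cells it had 466, 436, 553 and 608 FPM at pH 7.4 and 656, 678, 789 and 732 FPM at pH 6.0. All acidic libraries lay below the controls in NRK-52E cells (log2 fold change -0.93, SE 0.17, edgeR FDR = 0.000633) and above them in NRK-49F cells (log2 fold change 0.45, SE 0.12, edgeR FDR = 0.00591), and the difference passed the test (-1.40 ± 0.21, edgeR FDR = 3.45e-05). The rise in NRK-49F cells was called in 3 of the 8 fits that left out 1 library (0.39 to 0.53). Within the numbers Tpi1 gave -1.16 and -0.74 in NRK-52E cells and 0.57 and 0.37 in NRK-49F cells.

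Of the other genes at these steps, Pgam1, which moves the phosphate of phosphoglycerate, was called higher in both lines (0.43 ± 0.10 and 0.55 ± 0.10), in NRK-52E cells in 5 of the 8 fits that left out 1 library and not with library totals (0.22), while Pgk1, a source of ATP in the pathway (0.35 ± 0.12 and 0.20 ± 0.14), and the muscle-type Pgam2 (0.71 ± 0.22 and 0.32 ± 0.18) were not called. In NRK-52E cells Pgk1 was called higher without replicate 1 of the controls (0.45) and Eno1 lower without replicate 5 (-0.45). The neuronal enolase gene Eno2 was higher in NRK-49F cells (0.73 ± 0.09) and not called in NRK-52E cells (-0.42 ± 0.19, but called at -0.66 without replicate 8 and at -0.67 with number 21 alone), with a difference between the lines that passed the test (-1.16 ± 0.21, edgeR FDR = 0.000155). The muscle enolase gene Eno3 was lower in NRK-49F cells (-0.83 ± 0.18, -0.50 and -1.11 within the numbers) and not called in NRK-52E cells (-0.35 ± 0.15), and the difference between the lines did not pass the test (0.47 ± 0.23, edgeR FDR = 0.0992). Eno1 (ENSRNOG00000017895, chromosome 5), the common enolase, had 729, 613, 525 and 571 FPM in NRK-52E cells at pH 7.4 and 523, 435, 445 and 511 FPM at pH 6.0. For NRK-49F cells the values were 973, 922, 1180 and 1187 FPM at pH 7.4 and 783, 805, 939 and 854 FPM at pH 6.0. The pH groups did not overlap in NRK-52E cells and overlapped in NRK-49F cells, and Eno1 was called in neither (-0.36 ± 0.12 and -0.35 ± 0.11). With library totals Eno1 (-0.58) and Eno3 (-0.56) were called lower in NRK-52E cells. Levels of Aldoa, Tpi1, Pgk1, Pgam1, Eno1, Pkm and Ldha are uncertain where near-identical copies share their fragments, since fragments that map to several places were counted at each. The strand of the libraries is not stated, so genes that overlap on opposite strands are uncertain too.

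Pyruvate kinase makes pyruvate and ATP, and Pkm (ENSRNOG00000011329, chromosome 8) encodes the form of most tissues. It had 860, 750, 680 and 736 FPM in NRK-52E cells at pH 7.4 and 1150, 1047, 1093 and 1053 FPM at pH 6.0. For NRK-49F cells they were 1062, 970, 1115 and 1246 FPM at pH 7.4 and 1006, 981, 1193 and 1095 FPM at pH 6.0. The acidic libraries were all higher in NRK-52E cells (log2 fold change 0.50, SE 0.09, edgeR FDR = 0.000678, 0.41 and 0.58 within the numbers) and overlapped the controls in NRK-49F cells (-0.05 ± 0.10). The difference between the lines passed the test (0.54 ± 0.14, edgeR FDR = 0.00443) and did so in 9 of the 16 fits that left out 1 library. Pklr, the liver and red cell form, did not exceed 0.281 FPM in NRK-52E cells and was at 0 in NRK-49F cells.

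Lactate dehydrogenase is built from the products of Ldha, which favours lactate formation, and Ldhb, which favours its use. Ldha (ENSRNOG00000013009, chromosome 1) had 468, 396, 332 and 377 FPM in NRK-52E cells at pH 7.4 and 359, 290, 302 and 365 FPM at pH 6.0. In NRK-49F cells it had 574, 530, 676 and 618 FPM at pH 7.4 and 490, 556, 674 and 641 FPM at pH 6.0. The pH groups overlapped in both lines and Ldha was not called (log2 fold change -0.27, SE 0.12, edgeR FDR = 0.0735 in NRK-52E, and log2 fold change -0.04, SE 0.12, edgeR FDR = 0.799 in NRK-49F). With library totals, where the median of all genes was -0.21, Ldha was called lower in NRK-52E cells (-0.48). Ldhb (ENSRNOG00000013000, chromosome 4) had 36.6, 33, 43.3 and 35.3 FPM in NRK-49F cells at pH 7.4 and 21.2, 23.1, 23.6 and 21.2 FPM at pH 6.0. It fell in all 4 acidic libraries (log2 fold change -0.75, SE 0.11, edgeR FDR = 0.000158, -0.65 and -0.83 within the numbers). In NRK-52E cells it had 2.62, 3.56, 1.91 and 2.86 FPM at pH 7.4 and 3.06, 2.7, 1.72 and 2.59 FPM at pH 6.0, a low and overlapping level without a call (-0.15 ± 0.26), and the difference between the lines did not pass the test (0.58 ± 0.26, edgeR FDR = 0.0659).

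Pyruvate dehydrogenase kinases switch off the entry of pyruvate into the citrate cycle. Pdk1 (ENSRNOG00000001517, chromosome 3) rose in NRK-49F cells from 20.5, 17, 23.5 and 22.4 FPM to 46.4, 46.2, 48.9 and 42.5 FPM. In NRK-52E cells it went from 14, 13, 14 and 14 FPM to 20, 20, 17 and 22 FPM. The groups lay apart in both lines (1.13 ± 0.12 and 0.48 ± 0.13, edgeR FDR = 9.1e-06 and 0.00576), with the larger rise in NRK-49F cells (-0.66 ± 0.16, edgeR FDR = 0.00253 for NRK-52E minus NRK-49F). Within the numbers Pdk1 gave 1.31 and 0.97 in NRK-49F and 0.50 and 0.44 in NRK-52E cells. The rise in NRK-52E cells was called in 2 of the 8 fits that left out 1 library (0.42 to 0.56) and not with library totals (0.27). Pdk2 (ENSRNOG00000004172, chromosome 10) had 47.4, 49, 47.4 and 44.4 FPM in NRK-52E cells at pH 7.4 and 11.4, 14.7, 12.1 and 16.4 FPM at pH 6.0. It fell in each acidic library (log2 fold change -1.80, SE 0.13, edgeR FDR = 1.04e-06, -1.92 and -1.71 within the numbers), whereas in NRK-49F cells, with 33.8, 30.1, 24.1 and 28.7 and 34.7, 29.6, 26.8 and 23 FPM, the groups overlapped (-0.05 ± 0.14) and the effects differed (-1.77 ± 0.20, edgeR FDR = 1.44e-06). Pdk4 (ENSRNOG00000009565, chromosome 4), a kinase gene known to rise in fasting, went from 3.28, 4.47, 4.35 and 6.05 FPM to 17.7, 25.8, 25 and 9.12 FPM in NRK-52E cells. All acidic libraries were above the controls, replicate 8 the least (log2 fold change 2.07, SE 0.31, edgeR FDR = 0.000152, 2.44 and 1.69 within the numbers), and in NRK-49F cells Pdk4 did not exceed 0.171 FPM. Pdk3 was called lower in NRK-52E cells (-0.77 ± 0.19, in 6 of the 8 fits that left out 1 library, -1.01 and -0.59 within the numbers) and not called in NRK-49F cells (0.22 ± 0.15), with a difference that passed the test (-1.01 ± 0.25, edgeR FDR = 0.00227).

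Taken over all steps, a difference in pH effect between NRK-52E and NRK-49F was tested for 32 of the glycolysis genes and passed in 13, against 37.0% of all 14679 genes tested. For 3 of them (Hk2, Aldoc and Pkm) the effect was more positive in NRK-52E cells and for 10 in NRK-49F cells. With library totals the split was 1 and 12, and 33.7% of all called genes were then more positive in NRK-52E cells, beside 52.3% with TMM. Between the cell lines at pH 7.4, 9 of 32 tested genes were higher in NRK-52E cells, against 28.0% of all genes, and 19 in NRK-49F cells, against 33.7%. At pH 6.0, 6 were higher in NRK-52E cells, against 30.7%, and 19 in NRK-49F cells, against 33.8%. On the log2 scale the level in NRK-52E minus that in NRK-49F at pH 7.4 was -6.55 ± 0.18 for Pfkp, -3.76 ± 0.19 for Ldhb and 2.17 ± 0.12 for Pfkfb3, 3 genes picked after their values were seen. With library totals the count higher in NRK-49F cells at pH 7.4 was 10, with 65.9% of all called genes higher in NRK-52E cells in place of 45.3% and the median of all genes moved from -0.05 to 0.34. The comparisons of pH and of cell line share libraries. The summed FPM of the 35 genes was 4142 to 5203 in NRK-52E cells at pH 7.4 and 4749 to 5460 at pH 6.0, and 6843 to 8236 and 7850 to 9326 in NRK-49F cells, so the pH groups overlapped in each line.

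Ratios of counts between isoform genes within a library do not depend on how libraries are scaled. There were 11 such ratios over both lines, tested with two-sided exact permutation tests of 4 against 4 libraries, whose smallest possible p is 0.0286, and p was adjusted over the 11. The log2 ratio of Hk2 to Hk1 in NRK-52E cells was -1.58, -1.79, -1.53 and -1.71 at pH 7.4 and 0.96, 0.72, 0.80 and 0.37 at pH 6.0. In NRK-49F cells it was -1.82, -1.75, -1.79 and -1.92 at pH 7.4 and -0.55, -0.63, -0.62 and -1.02 at pH 6.0. The ratio thus rose in all acidic libraries of both lines, by 2.36, exact permutation p = 0.0286, adjusted p = 0.0393 in NRK-52E and by 1.11, exact permutation p = 0.0286, adjusted p = 0.0393 in NRK-49F. The log2 ratio of Ldha to Ldhb in NRK-49F cells was 3.97, 4.0, 3.96 and 4.13 at pH 7.4 and 4.53, 4.59, 4.84 and 4.92 at pH 6.0. It rose in all acidic libraries (0.70, exact permutation p = 0.0286, adjusted p = 0.0393), while in NRK-52E cells the difference was -0.14, exact permutation p = 0.629, adjusted p = 0.686. The log2 ratio of Eno1 to Eno2 in NRK-49F cells was 2.64, 2.60, 2.85 and 2.67 at pH 7.4 and 1.58, 1.62, 1.68 and 1.59 at pH 6.0. It fell in every acidic library (-1.08, exact permutation p = 0.0286, adjusted p = 0.0393), and in NRK-52E cells it overlapped (0.10, exact permutation p = 0.686, adjusted p = 0.686). The ratio of Pfkp to Pfkl rose in NRK-49F cells (1.07, exact permutation p = 0.0286, adjusted p = 0.0393) and, from a low count of Pfkp, in NRK-52E cells (1.16, exact permutation p = 0.0286, adjusted p = 0.0393). The ratio of Aldoa to Aldoc fell in NRK-52E cells (-1.62, exact permutation p = 0.0286, adjusted p = 0.0393) and rose in NRK-49F cells (0.44, exact permutation p = 0.0286, adjusted p = 0.0393). The ratio of Slc2a1 to Slc2a3 in NRK-49F cells overlapped and did not pass (0.80, exact permutation p = 0.0571, adjusted p = 0.0698).

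**Figure D3:**
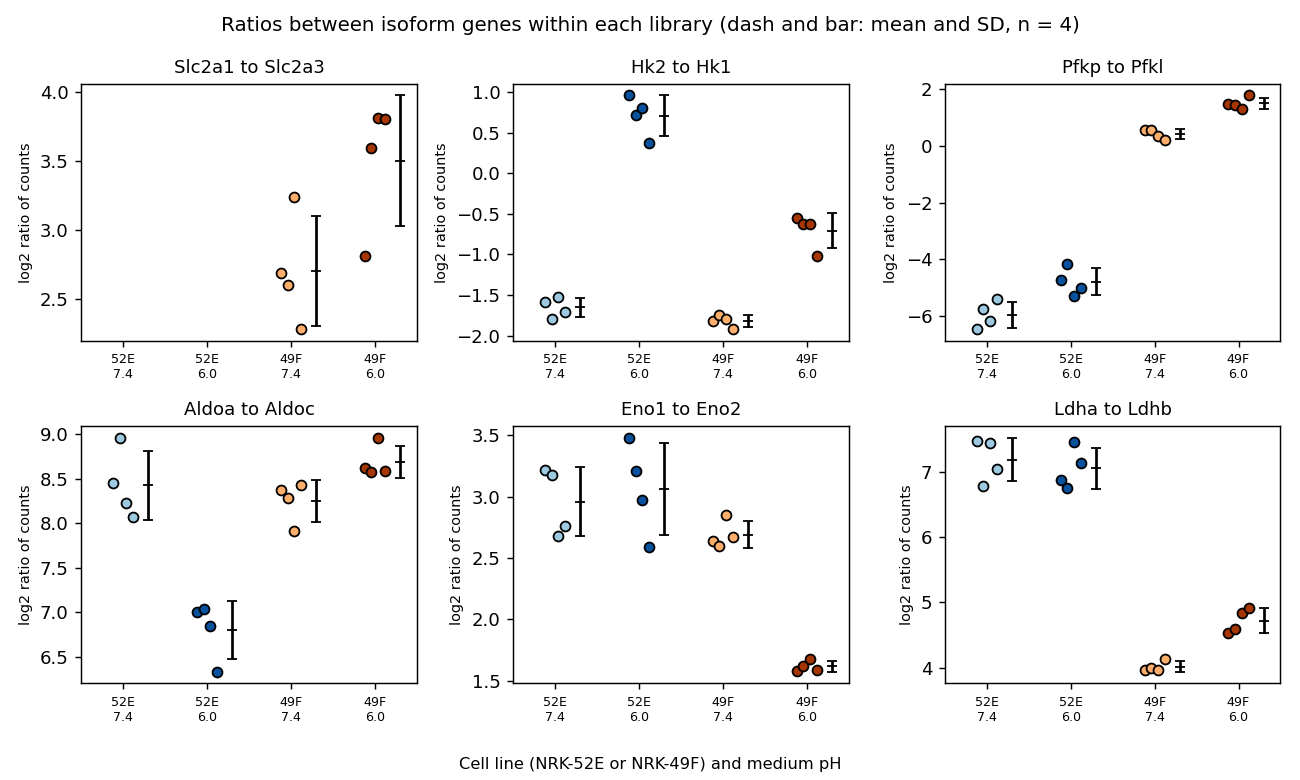
Log2 ratio of counts between 2 isoform genes in each library (y axes, points) by cell line and medium pH (x axes), with the mean and SD of 4 libraries beside them. Slc2a1 to Slc2a3 is drawn for NRK-49F cells alone. The ratio of Hk2 to Hk1 is higher at pH 6.0 in all libraries of both lines, and Eno1 to Eno2 is lower at pH 6.0 in NRK-49F cells.

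Lactate leaves the cell through monocarboxylate carriers, and pyruvate enters the mitochondrion through the Mpc proteins. In NRK-52E cells 1 of 6 tested genes were higher and 3 lower (median -0.27) on this list, and in NRK-49F cells 1 of 7 tested genes were higher and 3 lower (median -0.56). Medians here and below are of log2 fold changes, beside 0.00 over all genes tested in each line. Of all genes, 28.2% were called higher and 28.5% lower in NRK-52E cells. In NRK-49F cells these shares were 18.4% and 19.4%, and they apply to each list below. Slc16a1, the carrier MCT1, fell in NRK-52E cells (-0.49 ± 0.09) and rose in NRK-49F cells (0.99 ± 0.16), and the difference passed the test (-1.49, edgeR FDR = 1e-05). Mpc2 did the reverse, with 0.83 ± 0.13 in NRK-52E and -0.51 ± 0.13 in NRK-49F cells (1.32, edgeR FDR = 1.46e-05). Slc16a3, the lactate exporter MCT4, was low and fell in NRK-52E cells (-1.71 ± 0.27), as did Emb, a partner protein of the carriers (-0.56 ± 0.16). The pH groups overlapped for Emb, and it was called in 2 of the 8 fits that left out 1 library, at -0.70 to -0.45. Mpc2 was called in 5 of 8 such fits in NRK-49F cells, where Bsg, another partner, fell (-0.83 ± 0.10) together with Mpc1 (-0.74 ± 0.11). These values are log2 fold changes ± SE.

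The pyruvate dehydrogenase complex, the target of the Pdk enzymes, had no gene called lower in either line. In NRK-52E cells 5 of 8 tested genes were higher and 0 lower (median 0.46), led by the E1 subunit genes Pdhb (1.22 ± 0.09) and Pdha1 (0.79 ± 0.08). In NRK-49F cells 4 of 8 tested genes were higher and 0 lower (median 0.47), led by Pdpr, a regulator of the complex's phosphatase (1.51 ± 0.20), and the E2 gene Dlat (0.87 ± 0.11).

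Of the genes for making glucose and for other glucose and fructose carriers, 3 of 6 tested genes were higher and 1 lower (median 0.24) in NRK-52E cells, and 1 of 6 tested genes were higher and 1 lower (median 0.15) in NRK-49F cells. Pyruvate carboxylase, Pc, which feeds pyruvate into oxaloacetate, rose in NRK-52E cells (1.95 ± 0.14), as did the carrier gene Slc2a8 (0.75 ± 0.12). The fructose carrier gene Slc2a5 fell in both lines (-1.80 ± 0.19 and -1.79 ± 0.12), and the glucose 6-phosphate carrier gene Slc37a4 rose in both (0.46 ± 0.12 and 0.45 ± 0.10). Leaving out 1 library, Slc37a4 was called in 2 of 8 fits in NRK-52E and 7 of 8 in NRK-49F cells. Pck1, which encodes the cytosolic enzyme of gluconeogenesis, was at 0 in the 16 libraries. The glucose-sensing list had 3 of 4 tested genes higher in NRK-52E cells and 2 of 4 in NRK-49F cells, with medians of 0.49 and 1.14, and none lower in either. Txnip, which slows glucose uptake and answers to glucose 6-phosphate through MondoA, had 297, 293, 301 and 308 FPM in NRK-52E cells at pH 7.4 and 545, 453, 402 and 397 FPM at pH 6.0. The NRK-49F libraries had 282, 278, 253 and 239 FPM at pH 7.4 and 786, 801, 837 and 927 FPM at pH 6.0. It was higher in every acidic library of both lines (0.56 ± 0.11 and 1.66 ± 0.10), as was its relative Arrdc4 (1.69 ± 0.11 in NRK-52E and 1.5 ± 0.12 in NRK-49F).

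Hypoxia-inducible factors control many glycolysis genes. On their own list 2 of 6 tested genes were higher and 2 lower (median -0.21) in NRK-52E cells, and 0 of 7 tested genes were higher and 1 lower (median 0.14) in NRK-49F cells. The NRK-52E libraries had 88.2, 95.7, 109 and 102 FPM of Hif1a at pH 7.4 and 183, 192, 188 and 129 FPM at pH 6.0. The groups did not overlap there (log2 fold change 0.78, SE 0.13, edgeR FDR = 0.000246), and in NRK-49F cells, with 118, 110, 102 and 89.9 and 119, 113, 131 and 148 FPM, they did (log2 fold change 0.27, SE 0.11, edgeR FDR = 0.055). Vhl, which marks the factors for breakdown, rose in NRK-52E cells (1.11 ± 0.09), and the prolyl hydroxylase genes Egln2 (-1.08 ± 0.11) and Egln1 (-0.51 ± 0.12) fell, with Egln2 also lower in NRK-49F cells (-0.67 ± 0.12). Of the factors' targets outside glycolysis, 5 of 10 tested genes were higher and 2 lower (median 0.77) in NRK-52E cells and 3 of 11 tested genes were higher and 1 lower (median 0.09) in NRK-49F cells. Ddit4 (2.39 ± 0.20) and Vegfa (1.95 ± 0.19) rose in NRK-52E cells while the carbonic anhydrase gene Ca9 (-1.74 ± 0.18) and P4ha2 (-0.42 ± 0.10) fell. In NRK-49F cells Adm (2.03 ± 0.10) and Vegfa (1.36 ± 0.10) rose and Ndrg1 fell (-0.32 ± 0.09), the last in 1 of the 8 fits that left out 1 library. In NRK-52E cells such fits called P4ha2 in 4 and Egln1 in 6 of 8.

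Of the genes of the hexose branches and glycogen, 4 of 14 tested genes were higher and 5 lower (median -0.26) in NRK-52E cells, and 4 of 13 tested genes were higher and 1 lower (median 0.10) in NRK-49F cells. Pgm1, which links glucose 6-phosphate with glycogen, rose in both lines (1.20 ± 0.13 and 1.19 ± 0.09), as did the aldose reductase gene Akr1b1 (0.90 ± 0.11 and 0.67 ± 0.11). The glycogen branching enzyme gene Gbe1 rose in NRK-49F cells (0.75 ± 0.14) and fell in NRK-52E cells (-1.23 ± 0.14), and the difference passed the test (-2.0, edgeR FDR = 2.6e-07). Glycogen phosphorylase, Pygb, fell in NRK-52E cells (-1.40 ± 0.12), as did the low glycerol phosphate dehydrogenase gene Gpd1 (-1.92 ± 0.37), and Gpd1l fell in both lines (-0.76 ± 0.13 and -0.57 ± 0.10).

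Promoter sequences from RefSeq (build GRCr8) were read for 31 of the 35 genes, as 35 windows of 250 bases before to 50 after a start, since some genes have more than 1 start. The letters ACGTG, the core of the hypoxia response element, and CACGTG, an E-box read by MondoA, ChREBP and other factors, were searched on both strands, and each CACGTG also holds the shorter motif. The shorter motif was found in 16 of 35 windows, against 19.3% of all 33469 windows, and CACGTG in 4, against 6.42%. Of the 5 genes called higher in both lines (Hk2, G6pc3, Pfkfb3, Pgam1 and Pdk1), 4 held ACGTG and 2 held CACGTG, and of the 7 genes with a window that were lower in NRK-52E cells, 3 held ACGTG and 1 held CACGTG. A match describes the letters in the window alone. The windows compared were not matched for base content, genes with several starts gave several windows, and no difference was tested. Stretches before the start are printed for 3 genes that rose in both lines and for Pdk2, which fell in NRK-52E cells, with the matches in capitals. They are 5′ to 3′ in the direction of the gene, at chr17:71944844-71944932, plus strand for Pfkfb3, chr10:87646951-87647050, plus strand for G6pc3, chr1:250672963-250673062, plus strand for Pgam1 and chr10:80484003-80484102, minus strand for Pdk2, and all lie upstream of the annotated start.
Pfkfb3: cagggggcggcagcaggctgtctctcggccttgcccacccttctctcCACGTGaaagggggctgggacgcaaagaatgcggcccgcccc
G6pc3: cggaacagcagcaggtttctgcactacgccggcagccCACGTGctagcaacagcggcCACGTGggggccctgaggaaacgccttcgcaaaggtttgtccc
Pgam1: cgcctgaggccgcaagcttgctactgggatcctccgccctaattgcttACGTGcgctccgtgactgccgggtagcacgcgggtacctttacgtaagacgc
Pdk2: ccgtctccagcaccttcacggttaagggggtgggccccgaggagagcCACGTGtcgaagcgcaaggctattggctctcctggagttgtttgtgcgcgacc
The match lies 42 bases before the start in Pfkfb3, and G6pc3 holds CACGTG at 2 places. The same letters were thus found before genes that rose and before a gene that fell.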

How the data were processed

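The values used were counts of fragments on genes, deposited by the authors for 16 libraries of polyA-selected RNA. Per the submitters' processing notes the reads had been aligned to rn6 with HISAT2 2.1.0 and counted with featureCounts, while the study's methods name another aligner. The labels write pH 7 and 6 for media described as pH 7.4 and 6.0. From the counts, edgeR 4.0.16 (quasi-likelihood test, TMM scaling, filterByExpr) and DESeq2 1.42.0 in R 4.3.3 were fitted to all genes of the 8 libraries of each cell line. Differences between the pH effects and between cell lines were tested with edgeR on all 16 libraries at an FDR below 0.01. Isoform ratios were tested by exact permutation with an adjusted p below 0.05, and the tests were tried on simulated data. The glycolysis genes, the lists of related genes and markers and the motifs were chosen with earlier results of these data known. Values in every library are given for glycolysis genes with a call and a log2 fold change beyond 1 in size, for those called in opposite directions, for Ldha, Ldhb and Pkm and for the 3 with the highest FPM. The 2 largest rises and falls called on each related list, Hif1a and Txnip are named. Others, such as Slc16a1 and Mpc2 with opposite calls, and Pck1, were picked after their values were seen. Gapdh, Col1a2, Col6a3 and Pecam1 were not analysed here. Alternatives were other scalings, filters, tools, thresholds, 1 fit for all libraries, each library left out, the further number as covariate, each number alone, and a pseudocount in the ratios.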

Additional observations from a re-analysis of the deposited data

Results flagged for a closer look

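Libraries that lie far from the other 3 of their group were found in 6 of 120 groups of 4 values, and chance alone flags about 1 in 20 groups. In the NRK-52E controls these were Gpi with 412.5 FPM and Pfkl with 115 FPM in replicate 1, Pfkm with 125.5 FPM in replicate 5 and Pfkfb3 with 59.83 FPM in replicate 6. In the acidic NRK-52E group replicate 8 had 59.94 FPM of Pfkm, and in the NRK-49F controls replicate 13 had 6.518 FPM of Aldoc.

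For 13 of 32 tested glycolysis genes the log2 fold change in NRK-52E minus that in NRK-49F passed the edgeR test. The FDR limit was 0.01, and 37.0% of all genes tested passed it. The effect was more positive in NRK-52E cells for Hk2 (0.81), Aldoc (2.33) and Pkm (0.54). Of the 16 fits that left out 1 library, 4 called the difference for Hk2, 9 for Pkm and 16 for Aldoc. With library totals only 1 gene was more positive in NRK-52E cells, and 12 were in NRK-49F cells. It was more positive in NRK-49F cells for Slc2a1 (-1.09), Pfkl (-1.74), Pfkm (-1.33), Pfkp (-1.67), Tigar (-1.04), Tpi1 (-1.40), Eno2 (-1.16), Pdk1 (-0.66), Pdk2 (-1.77) and Pdk3 (-1.01). Cell line and growth surface cannot be told apart in these differences.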

How the results depend on the processing

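Of 1200 log2 fold changes of glycolysis genes under other settings, 1120 kept their side of the threshold, 49 lost the call, 31 gained it, and 0 called ones changed sign. Some near 0 that were never called did change sign, such as Hk1 in NRK-52E cells (-0.02, and 0.08 with number 21 alone). With 2 against 2 libraries the loss of calls depended on the number. In NRK-52E cells 5 genes were higher and 8 lower with number 21 alone, and 3 higher, 3 lower and 6 in all with number 22 alone. In NRK-49F cells 9 were higher and 3 lower with number 20 alone, and 5 higher, 1 lower and 6 in all with number 21 alone. At an FDR below 0.05, a looser threshold, 5 genes were lower in NRK-49F cells. Leaving out 1 library, 7 to 13 genes were lower in NRK-52E cells. For these settings the share of all genes called is not given here, so the counts are not a result about glycolysis genes. Library totals left 10 genes higher in NRK-49F cells at pH 7.4. The log2 ratio of Pfkp to Pfkl in NRK-52E cells rose by 0.95 to 1.35 and that of Aldoa to Aldoc in NRK-49F cells by 0.33 to 0.50 with 1 library left out, where fewer libraries raise the smallest possible p. The cause was not tested where none is given. Hk3, Fbp1 and Pklr were too low for a test in either line at this depth.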
